A study of Mus musculus with 12 samples.

Results

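Btg2 and its relatives Btg1, Btg3, Tob1 and Tob2 were followed through striatal RNA-seq and through CLIP-seq of the RNA-binding protein hnRNP H, in mice given methamphetamine or saline. CLIP-seq crosslinks a protein to RNA in the tissue, precipitates it and sequences the RNA that stayed attached. The 5 genes were taken by family name, and the family was chosen because Btg2 had the smallest unadjusted p of all 18208 genes for methamphetamine against saline in the RNA-seq. The 5 genes held 19 of the 147438 distinct CLIP positions of 100 nt, and 1 of the 9903 positions in the methamphetamine peak list and 1 of the 9537 in the saline list.

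All groups were wild-type C57BL/6J mice, 50 to 100 days old, bred from heterozygous Hnrnph1 mutant fathers and C57BL/6J mothers. Every mouse was injected intraperitoneally with saline on 2 days and, on the day after, with saline again or with methamphetamine at 2 mg/kg, and both striata were taken 30 min later. Each replicate was a pool of 4 mice, 2 females and 2 males, with 3 pools per treatment, so that p-values measure the spread between these pools. RNA for RNA-seq came from part of each pool before crosslinking, and the CLIP libraries came from the membrane region of 50 to 75 kDa that holds hnRNP H with RNA fragments of 30 to 70 nt. The striatum is mixed tissue, and in it fewer cells of a type and less RNA per cell cannot be told apart.

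BTG and Tob proteins are small antiproliferative proteins that hold a shared amino-terminal domain with which they bind the CAF1 deadenylases of the CCR4-NOT complex. Through that contact they speed the shortening of poly(A) tails, the step that begins the decay of most mRNAs, and Tob1 and Tob2 also bind the poly(A)-binding protein itself. Btg2, also called PC3 or TIS21, is itself transcribed within minutes of a stimulus, as immediate early genes are, and is also a target of p53.

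Btg2 RNA was higher in every methamphetamine pool than in every saline pool. Btg2 (ENSMUSG00000020423, chr1:134075170-134079120 on GRCm38, minus strand) stood at 2.38, 2.78 and 2.54 log2 CPM in saline replicates 1, 2 and 3, and at 3.86, 3.69 and 3.99 log2 CPM in methamphetamine replicates 1, 2 and 3. The groups did not overlap, and the lowest methamphetamine library lay above the highest saline library. Behind these values stood 18, 32 and 23 saline reads and 72, 56 and 82 methamphetamine reads, 283 in all, which makes Btg2 a transcript of low depth in these libraries. Its mean was 2.57 ± 0.20 log2 CPM with saline and 3.85 ± 0.15 with methamphetamine (SD, n = 3), a difference of 1.28 ± 0.26 (SE, limma) with a 95% interval of 0.70 to 1.86. On the linear scale that is 2.43-fold, with an interval of 1.63 to 3.62. Since this contrast chose the family, the difference is a description without a test. The ranking by unadjusted p gave 0.000717 for Btg2 and 0.00102 for Srd5a2, the nearest gene outside the rule.

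The RNA-seq libraries held 3935160 to 5091839 reads. Across all genes, 23 of 13177 with at least 60 reads had a larger positive difference than Btg2. After Benjamini-Hochberg adjustment in limma 0 of 18208 genes passed 0.05, a background of 0%, and 276 genes (1.52%) had an unadjusted p under 0.05, 101 of them higher and 175 lower after methamphetamine. Counts of reads gave the same outcome, with 0 genes past the adjusted threshold in edgeR and in DESeq2 and with 223 and 103 genes at an unadjusted p under 0.05. The treatments did not overlap for 6.01% of genes, and in 2.44% every methamphetamine value lay above every saline value, as for Btg2. The rule that chose the family used this contrast, so nothing is read from Btg2's place among those genes.

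The libraries also fell on opposite sides of the first principal component, which carried 65.6% of the variance over 7853 genes. One side, called set A here, held saline replicates 1 and 3 with methamphetamine replicate 2. The opposite side, set B, held saline replicate 2 together with methamphetamine replicates 1 and 3. CLIP libraries of the same pools split in the same way. Within set A, with 1 methamphetamine pool, the Btg2 difference was 1.23, and within set B, with 1 saline pool, it was 1.15. These come from the values that chose Btg2 and are a description.

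**Figure D1:**
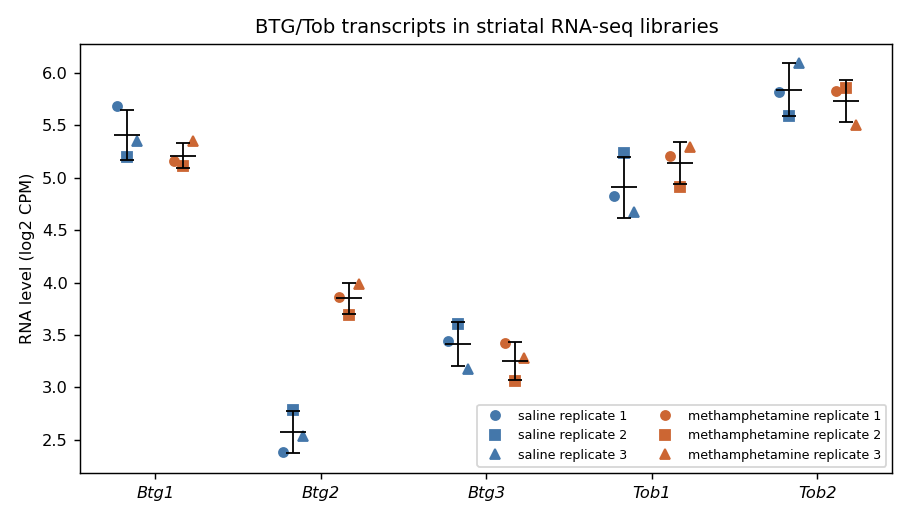
RNA level of the 5 genes in log2 CPM (vertical axis) in each pool, with replicates 1, 2 and 3 as circles, squares and triangles, and bars for the mean and SD of 3 pools. Btg2 is the member whose treatments separate, at 2.38 to 2.78 after saline and 3.69 to 3.99 after methamphetamine.

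For the other 4 members no difference was called (limma, adjusted p 0.9998 for each). None had an unadjusted p under 0.05 either, and for all 4 the treatments overlapped.

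Btg1, the closest paralog of Btg2 and another binder of CAF1 (ENSMUSG00000036478, chr10:96617006-96622809, plus strand), stood at 5.68, 5.20 and 5.35 log2 CPM after saline and at 5.16, 5.11 and 5.35 after methamphetamine. Only saline replicate 1 stood above the other libraries. The difference was -0.20 ± 0.19 (SE), with an interval of -0.62 to 0.22 (limma), and its sign differed between the library sets, at -0.40 in set A and 0.05 in set B.

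Btg3, an antiproliferative member also known as ANA (ENSMUSG00000022863, chr16:78332637-78377192, minus strand), gave 3.44, 3.60 and 3.18 log2 CPM after saline and 3.42, 3.06 and 3.28 after methamphetamine. Its groups lay over each other, with a difference of -0.15 ± 0.25 (SE) and an interval of -0.72 to 0.42 (limma). The Btg3 counts are uncertain: 30.9% of the 50-base stretches of its transcripts also occur in other genes, above all in the pseudogene Gm7334 and, on the opposite strand, in Cxadr, whose gene overlaps Btg3 over 27138 nt. Cxadr itself had 129 RNA-seq reads against 270 for Btg3, and whether the counting used strand is not given in the sources used here. Btg2 and Tob1 shared none of their 50-base stretches with another gene, Btg1 shared 2.49% and Tob2 2.99%.

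Tob1, a Tob protein that also binds SMADs and the poly(A)-binding protein (ENSMUSG00000037573, chr11:94211454-94215495, plus strand), stood at 4.83, 5.24 and 4.67 log2 CPM after saline and at 5.21, 4.91 and 5.29 after methamphetamine. The high libraries were saline replicate 2 and methamphetamine replicates 1 and 3, which are the libraries of set B. Its difference of 0.22 ± 0.21 (SE; interval -0.25 to 0.70, limma) came to 0.16 within set A and 0.01 within set B.

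Tob2, its paralog (ENSMUSG00000048546, chr15:81848272-81858796, minus strand), gave 5.82, 5.59 and 6.09 log2 CPM after saline and 5.83, 5.86 and 5.50 after methamphetamine. These ranges overlapped widely, with a difference of -0.11 ± 0.19 (SE) and an interval of -0.54 to 0.32 (limma). The sign of the Tob2 difference rested on single pools: it was 0.01 without methamphetamine replicate 3 and 0.02 without saline replicate 3. Whether these differences differ from that of Btg2 was not tested. Btg4, the germline relative that was not among the members, had between 0 and 7 reads per library, too few to describe.

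Per length of transcript, Tob1 had the highest mean in striatum, and Btg3 and Btg2 had the lowest after saline. In log2 RPKM, computed from recovered reads and the summed length of all annotated exons, the saline means were 3.72 ± 0.29 for Tob1, 3.10 ± 0.25 for Tob2, 3.01 ± 0.24 for Btg1, 1.40 ± 0.21 for Btg3 and 1.11 ± 0.20 for Btg2 (SD, n = 3). Tob2 and Btg1 did not differ beyond their spread, nor did Btg3 and Btg2, whose saline ranges were 1.17 to 1.60 and 0.92 to 1.32. After methamphetamine Btg2 reached 2.39 ± 0.15 log2 RPKM, with a range of 2.23 to 2.54 that lay above the 1.05 to 1.41 of Btg3 and below the 2.71 to 2.95 of Btg1. The order of the upper members depended on the length used: with the longest transcript in place of all exons, Tob2 came to 3.78 log2 RPKM after saline, level with Tob1 at 3.72, and Btg3 to 1.81.

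Upstream of the Btg2 start site lies a full cyclic AMP response element, TGACGTCA, the palindrome bound by CREB, a factor that neuronal activity switches on. RefSeq promoters (GRCm38.p6; 250 bases before to 50 after each start) were matched by symbol for all 5 members, with 6 entries. Among the 6 only the Btg2 entry held the full motif, at base 166 before its RefSeq start. The same motif stood at base 143 before the RefSeq start of Dusp1, a phosphatase gene that is also an immediate early gene. The RefSeq start of Btg2 matched no GENCODE transcript start, so this distance does not refer to the gene coordinates given above. The motif was looked for after the promoter had been read, on both strands. Below, 80 bases around the motif are shown for each gene on the minus strand, 5′ to 3′ as transcribed, with the motif in capitals.

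Btg2 promoter, chr1:134079278-134079357: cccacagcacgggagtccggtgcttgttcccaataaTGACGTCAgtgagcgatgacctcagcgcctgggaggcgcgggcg

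Dusp1 promoter, chr17:26508572-26508651: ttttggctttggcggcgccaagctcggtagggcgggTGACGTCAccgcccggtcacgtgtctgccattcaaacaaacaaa

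Of all 32817 promoter entries 588 (1.79%) held TGACGTCA, and 20.8% held the half-site TGACG, which is contained in it. Btg1 held 2 half-sites, Tob1 held 1, and the Btg3 and Tob2 entries held none. The CArG box, the motif of serum response factor, was found in none of the 6 entries and in 1.63% of all promoters. Of the 24 other immediate early genes listed for comparison 18 had an entry, and Dusp1 was the 1 among them with the full motif (5.56%). Counted by gene in the same way, 549 of 26994 genes (2.03%) held it. Egr1, Egr3, Arc, Ier2, Klf10 and Sik1 were not matched. A match describes these letters and says nothing of whether a factor was bound.

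Other immediate early genes, listed by name, gave 0 calls at 30 min. Of the 24, 19 had a positive difference, against 9172 of 18208 genes, and their median was 0.12 against 0.001981 over all genes. Their summed level was 2208 to 3571 CPM after saline and 2500 to 3371 CPM after methamphetamine. By library set it was 3371 to 3571 CPM in set A and 2208 to 3099 CPM in set B. The sets thus separated in this sum, in which abundant genes weigh most, while the treatments overlapped. Fos and Dusp1 were the 2 of 24 with an unadjusted p under 0.05 (limma; 1.52% of all genes) and also the 2 that did not overlap between treatments (6.01% of all genes). Fos, the AP-1 subunit used as a marker of neuronal activity, stood at 4.64, 4.22 and 4.64 log2 CPM after saline and at 5.16, 5.17 and 5.81 after methamphetamine. That is a difference of 0.88 ± 0.23 (SE, limma, adjusted p 0.9998), at 0.53 within set A and 1.26 within set B. Dusp1 stood at 4.98, 4.60 and 4.97 log2 CPM after saline and at 5.50, 5.63 and 5.36 after methamphetamine, a difference of 0.65 ± 0.18 (SE, limma, adjusted p 0.9998), at 0.66 within set A and 0.83 within set B. Btg2 was known from the same contrast, so it adds nothing to the count for this list. At the other end Ier5, a stress-responsive immediate early gene, had a difference of -0.72 ± 0.40 (SE, limma, adjusted p 0.9998), with overlapping treatments.

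The genes whose levels over the 6 libraries were most like those of Btg2 were not immediate early genes. Among 13176 genes with at least 60 reads the highest Pearson r with Btg2 were 0.994 for Morn2, 0.986 for Mars1 and Cyp4f17, 0.979 for Slco2b1 and 0.972 for Efl1. Their differences were between 0.25 (Mars1, the cytosolic methionyl-tRNA synthetase) and 1.04 (Cyp4f17, with 80 reads in all). Fos had an r of 0.847, at rank 134, and Dusp1 one of 0.796, at rank 266. Of the 24 immediate early genes 1 had an r above 0.8, against 1.94% of all genes compared, and the median r was 0.10 for the list and 0.10 for all genes. Within the family r with Btg2 was 0.628 for Tob1, -0.302 for Btg3, -0.414 for Tob2 and -0.603 for Btg1. All these values share the same 6 libraries and their treatment, and describe likeness only. Btg2 was chosen for its treatment difference in these libraries, so genes that split the treatments likewise rank high by construction.

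No difference was called in the deadenylase complex that BTG and Tob proteins bind. All 12 listed subunits of CCR4-NOT were measured, 0 passed the adjusted threshold, and 0 had an unadjusted p under 0.05. Their median difference was 0.06, with 7 of 12 positive, and the ends of the range were 0.20 ± 0.30 (SE) for Cnot7, a CAF1 deadenylase and the family's direct partner, and -0.11 ± 0.30 for Cnot6l, a CCR4 deadenylase (limma, adjusted p 0.9998 each). Cnot8, the other CAF1 subunit, had a difference of 0.10 ± 0.22 (SE).

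Downstream and parallel steps of mRNA decay gave no call either. The 5 other poly(A) tail enzymes and binding proteins had a median of 0.05, 3 of them positive, from -0.15 ± 0.18 (SE) for Pabpc4, a poly(A)-binding protein, to 0.11 ± 0.23 for Parn, a poly(A)-specific ribonuclease. For 12 other proteins that recruit deadenylases to mRNAs the median was 0.02, 7 of them positive. Here the ends were Zfp36l1, which binds AU-rich elements, at 0.30 ± 0.23 and Tnrc6c, a partner of microRNA-loaded Argonaute, at -0.61 ± 0.57 (SE). The 15 decapping and 5′ to 3′ decay genes had a median of -0.01 with 6 positive, and their ends among genes with 60 or more reads were Lsm6 at 0.34 ± 0.42 and Lsm2 at -0.32 ± 0.29 (SE), both subunits of the Lsm ring. In these lists 0 genes passed the adjusted threshold and 0 had an unadjusted p under 0.05. Lsm1 was the 1 gene whose treatments did not overlap, with -0.32 ± 0.21 (SE), while 6.01% of all genes did not overlap.

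Protein partners and p53 genes were looked at as the family's other known connections. Of 7 named partners 3 had a positive difference, the median was -0.03, and 0 passed the adjusted threshold or an unadjusted p under 0.05. Smad9, a receptor-regulated SMAD of the BMP pathway, had the largest positive difference, 0.43 ± 0.23 (SE, limma, adjusted p 0.9998). It was the 1 of 7 that did not overlap between treatments (6.01% of all genes). Erbb2, the receptor for which Tob was named, had -0.31 ± 0.35. Of 8 p53 targets and regulators 4 were positive, the median was -0.02, and 0 passed the adjusted threshold. Gadd45a, a DNA damage-inducible p53 target, was the 1 of 8 with an unadjusted p under 0.05 (1.52% of all genes), with means of 2.71 ± 0.23 log2 CPM (saline) and 3.43 ± 0.24 log2 CPM (methamphetamine; SD, n = 3), a difference of 0.72 ± 0.28 (SE, limma, adjusted p 0.9998). Gadd45a and Sesn2, a stress-induced p53 target with a difference of 0.38 ± 0.23 (SE), were the 2 of 8 whose treatments did not overlap (6.01% of all genes). Trp53 itself, Mdm2, Cdkn1a, Ccng1 and Bax had differences between -0.13 and 0.06, and Bbc3, a pro-apoptotic target, had -0.45 ± 0.29 (SE).

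**Figure D2:**
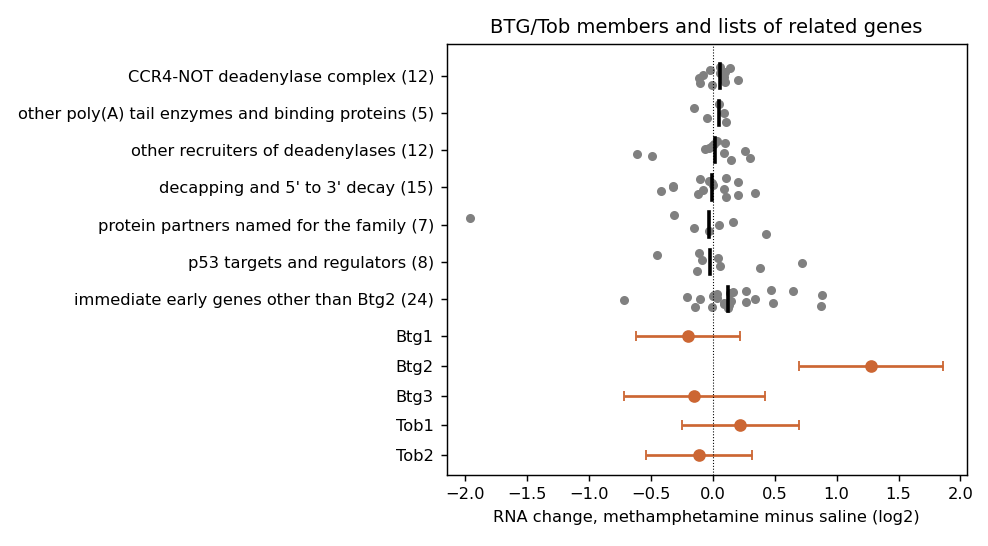
RNA difference of methamphetamine minus saline in log2 (horizontal axis) for each gene of 7 lists (grey points, with the list median as a black bar and the number of genes measured in brackets) and for the 5 members with 95% intervals. Btg2 lies at 1.28, while the list medians lie between -0.03 and 0.12, and the point at -1.96 is Hoxb9, which had 15 reads in all.

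No cell type marker passed the adjusted threshold (limma). All 10 striatal projection neuron markers, which define the labelled tissue, were present in every library, with a summed level of 6422 to 8865 CPM after saline and 5641 to 7637 CPM after methamphetamine. By library set the same sums were 7637 to 8865 CPM in set A and 5641 to 6422 CPM in set B, so the sets separated while the treatments overlapped. All 10 had a negative difference, with a median of -0.23, and Drd1, Penk and Pde10a did not overlap between treatments (6.01% of all genes did not). Cortical excitatory neuron markers had 5 of 6 positive and a median of 0.58, with summed levels of 137 to 478 CPM after saline and 376 to 780 CPM after methamphetamine, or 137 to 376 CPM in set A and 395 to 780 CPM in set B. The summed ranges for oligodendrocytes were 4852 to 11909 and 7682 to 11751 CPM (6 of 6 positive), for astrocytes 464 to 647 and 502 to 770 CPM (5 of 5), for microglia 206 to 247 and 209 to 281 CPM (5 of 5), for endothelium 53.3 to 110 and 59.3 to 119 CPM (4 of 5), and for neuroblasts and dividing progenitors 127 to 272 and 129 to 238 CPM (5 of 9). Choroid plexus markers spanned 63.4 to 225 CPM after saline and 82.6 to 4916 CPM after methamphetamine (5 of 6), where the highest value was methamphetamine replicate 2 alone: Ttr had 20129 reads there and 689 and 234 in methamphetamine replicates 1 and 3. Outside the striatal list Folr1, with 128 of its 148 reads in that same pool, and Dlx1 did not overlap between treatments, and Tbr1 and Folr1 had an unadjusted p under 0.05, as had 1.52% of all genes. Astrocyte sums were 464 to 576 CPM in set A and 647 to 770 CPM in set B. Microglia gave 206 to 226 and 243 to 281 CPM in sets A and B, and endothelium 53.3 to 69.5 and 77.2 to 119 CPM. For these lists, too, the sets separated while the treatments overlapped. Oligodendrocyte, choroid plexus and neuroblast sums overlapped both by set and by treatment. No marker gene was at 0 in all libraries, and the part of these markers in the Btg2 difference was not tested.

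hnRNP H is a splicing regulator that binds runs of guanines. On the BTG/Tob transcripts its CLIP reads were few. The 19 positions gathered 257 reads over 6 libraries, no position had more than 27, and 2 had 0. Some positions of Btg1, Btg3, Tob1 and Tob2 adjoin each other, and neighbouring positions may count the same read. Sums over positions may therefore hold some reads more than once. The libraries held between 423057 and 1635338 reads in all positions, so that 3 reads, the limit that a count of 0 allows, correspond to 1.83 to 7.09 RPM (reads scaled to the library's reads in all positions).

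The bases of the exonic positions show how guanine runs fall in them. Printed are the coding stretch of the Btg2 position and stretches of 30 bases from untranslated parts of Btg1 and Tob2, each on its gene's own strand, 5′ to 3′, with runs of 3 or more G in capitals. Each stretch of 30 bases was picked as the one of its position with the most bases in such runs. These stretches are therefore not typical of their positions.

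Btg2-1, chr1:134077372-134077470: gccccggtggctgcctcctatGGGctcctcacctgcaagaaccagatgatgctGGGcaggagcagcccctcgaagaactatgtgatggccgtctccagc

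Btg1-2, chr10:96617628-96617657: ggccggtcgcGGGGGacaaaagacccaGGG

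Btg1-3, chr10:96618707-96618736: gtGGGctcctcttGGGGatggattatggaa

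Tob2-2, chr15:81849730-81849759: taagaaactggtttcccagactgcagaGGG

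Tob2-3, chr15:81849840-81849869: tacgaggttGGGGGGtggacccaGGGtGGG

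Over the whole 100 nt, the Tob2-3 position held 5 runs of 3 or more G with the longest at 6, Btg1-2 held 3 runs, Btg1-3 and Btg2-1 held 2 each, and Tob2-2 held 1. The remaining Tob2 position with reads, Tob2-1, held none. Of 24074 exonic positions of all genes 70.9% held GGG and 36.5% held GGGG, so a run of 3 was the usual case and is not particular to the family. Intronic positions of Btg3 and Tob1 are given by coordinates only.

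Btg2 had 1 CLIP position, in its coding sequence, with 8 reads. They fell as 0, 1 and 0 reads in saline replicates 1, 2 and 3 and as 1, 0 and 6 in methamphetamine replicates 1, 2 and 3, so that 6 of the 8 came from 1 pool. In RPM the means were 0.788 ± 1.36 after saline and 3.73 ± 5.53 after methamphetamine (SD, n = 3), and the treatments overlapped. Btg2 failed the count filter. In a fit without a filter its gene sum had an adjusted p of 0.902 (edgeR), so binding of Btg2 RNA after methamphetamine was not distinguishable from that after saline at this depth. The position was in neither of the authors' treatment lists.

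Btg1 had 3 positions and 55 reads, with 8, 3 and 9 in the saline pools and 25, 6 and 4 in the methamphetamine pools. Methamphetamine replicate 1 alone stood high, at 27.5 RPM against 5.50 to 7.6 in the other 5 libraries. The position with the most reads, Btg1-3 in the 3′ untranslated region (chr10:96618707-96618806), had 4, 0 and 1 saline reads and 14, 0 and 4 methamphetamine reads. Btg1-1 (chr10:96617507-96617606), which begins 35 nt past the end of the first exon and overlaps the untranslated first exon of another transcript over 53 nt, had 2, 0 and 7 saline reads and 6, 6 and 0 methamphetamine reads. It is the member position in the methamphetamine list, where the authors' deposited table gives a signal of 1.75 and a q of 0.000661, against a median signal of 1.60 in that list.

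Tob2 had 4 positions and 29 reads, of which 21 came from methamphetamine replicate 1. Per library the sums were 2, 2 and 2 saline reads and 21, 0 and 2 methamphetamine reads, with overlapping treatments. Its reads lay in the 3′ untranslated region, above all at Tob2-3 (chr15:81849773-81849872), with 1, 1 and 1 saline reads and 8, 0 and 2 methamphetamine reads. The adjoining Tob2-2 had nearly the same counts, and neighbouring positions may count the same read.

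Tob1 had 5 positions and 65 reads, and its CLIP signal varied least among the members between pools of a treatment. Its sums were 10, 4 and 17 saline reads and 13, 14 and 7 methamphetamine reads, or 9.49, 9.45 and 10.4 RPM against 14.3, 14.3 and 11.8. These values did not overlap, in either library set, and the means were 9.78 ± 0.532 and 13.4 ± 1.46 RPM (SD, n = 3). Fitted over 8185 genes the Tob1 difference was 0.45 on the log2 scale with an adjusted p of 0.903 (edgeR), and 0.45 ± 0.69 (SE) in DESeq2. Of those 8185 genes 0% passed the adjusted threshold and 5.24% had an unadjusted p under 0.05, which Tob1 did not. The treatments did not overlap for 9.26% of them, and for 5.27% every methamphetamine pool lay above every saline pool, as for Tob1, so 1 such member of 2 tested is little to go by. The 4 positions with reads lay side by side in the intron from 24 nt past the first exon on, and Tob1-3 (chr11:94211955-94212054) had the most reads, with 3, 1 and 8 in the saline pools and 6, 3 and 3 in the methamphetamine pools.

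Btg3 had the most positions, 6, and the most reads, 100, in a gene of 44556 nt. Its sums were 14, 3 and 35 saline reads and 16, 27 and 5 methamphetamine reads, with means of 13.9 ± 7.18 and 17.9 ± 9.58 RPM (SD, n = 3). The treatments overlapped, the difference was 0.31 on the log2 scale (edgeR, adjusted p 0.93), and it was -0.22 without methamphetamine replicate 2. The position with the most reads, Btg3-2 (chr16:78375938-78376037, in an intron 564 nt past a first-exon end), had 11, 1 and 7 saline reads and 3, 3 and 2 methamphetamine reads. It is the member position in the saline list, with a signal of 1.46 and a q of 0.000423 in the authors' deposited table, against a median of 1.68 in that list.

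**Figure D3:**
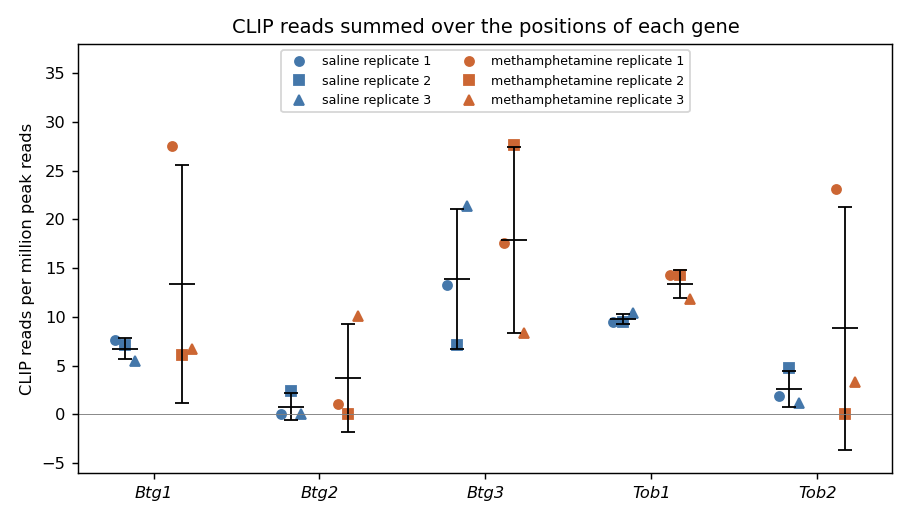
CLIP reads in RPM (vertical axis), summed over the positions of each gene in each pool, with bars for the mean and SD of 3 pools. Methamphetamine replicate 1 stands apart for Btg1 and Tob2, and the treatments separate only for Tob1, at 9.45 to 10.4 and 11.8 to 14.3.

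No member was in both treatment lists, so 2 of 5 members (40%) had a listed position, against 7016 of 17927 RNA-seq genes (39.1%). None of the 19 positions passed the count filter for single positions. In the fit of single positions 0 of 10358 (0%) passed the adjusted threshold and 369 (3.56%) had an unadjusted p under 0.05 (edgeR). Without the filter 17 member positions could be tested, and 0 had an unadjusted p under 0.05 (edgeR). The saline list also held 2 genes named as Btg1 pseudogenes, Btg1-ps1 (chrX:38014974-38015073) and Btg1-ps2 (chrX:38039400-38039499). Btg1-ps1 had 7, 1 and 37 saline reads and 1, 1 and 0 methamphetamine reads, where 37 of the 47 reads came from saline replicate 3. Both positions carried intron labels in that list, and the Btg1-ps1 position overlapped no annotated exon. Btg1 transcripts shared 50-base stretches with Gm14519 only. Whether these reads stem from sequence like that of Btg1 was not tested.

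Summed over the family, hnRNP H reads came to 32.3, 30.7 and 38.5 after saline and 83.6, 48.0 and 40.3 RPM after methamphetamine. Every methamphetamine pool lay above every saline pool, with means of 33.8 ± 4.13 and 57.3 ± 23.1 RPM (SD, n = 3). Among 8185 sums of single genes, 5.27% had every methamphetamine pool above every saline pool. An exact two-sided permutation test gave p = 0.1, the smallest that 3 against 3 pools can give. The Wilson 95% interval of methamphetamine replicate 1, 66.8 to 105 RPM, lay above those of the other 5 libraries, the highest of which ended at 63.8 RPM and which all overlapped each other. Methamphetamine replicate 1 held 76 reads, 25 of them on Btg1 and 21 on Tob2, and without it the difference fell from 23.4 to 10.3 RPM.

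Reads on Btg1, Btg3 and Tob1 lay mostly just past the end of a first exon. Within 500 nt after a first-exon end lay 11 of the 19 positions (57.9%) and 165 of the 257 reads (64.2%), against 9% of all positions and 9.3% of all reads. The members other than Btg3 are short genes, so positions in genes no longer than Tob2 are the nearer comparison; of those 25.5% lay in the window, with 17.1% of their reads. Without Btg3 the members had 7 of 13 positions (53.8%) and 61.8% of their reads there. The window was set after the positions had been seen, and these shares are a description. Btg2 and Tob2 were the exceptions, with their reads 1442 nt and at least 8064 nt past a first-exon end.

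**Figure D4:**
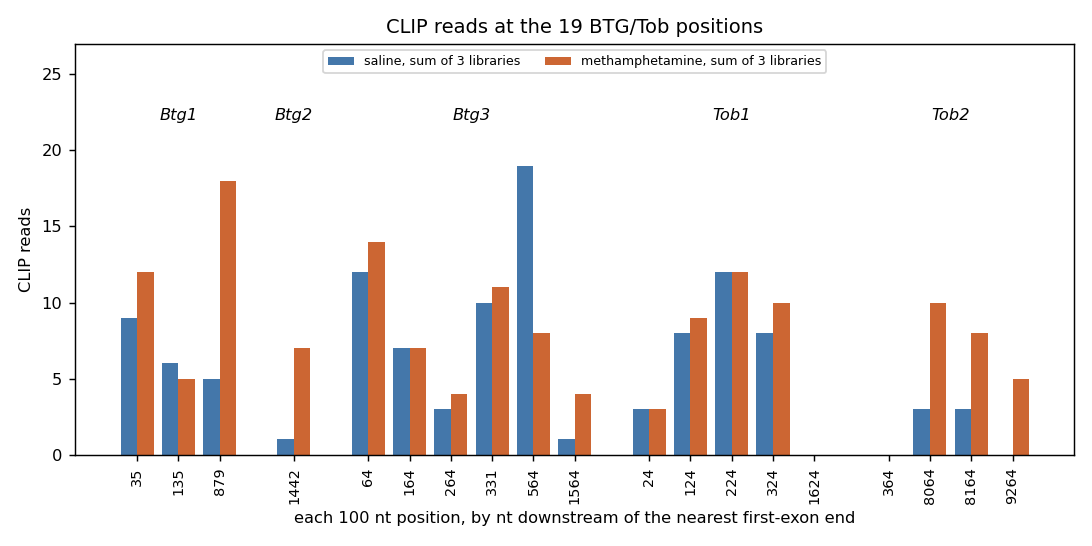
CLIP reads at each of the 19 positions (vertical axis, sum of 3 pools per treatment), grouped by gene and ordered by distance in nt from the nearest first-exon end upstream (horizontal axis labels). Btg1, Btg3 and Tob1 carry most reads within 564 nt, Btg1 also at 879 nt in the 3′ untranslated region, and Btg2 and Tob2 only from 1442 nt on.

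Relative to their RNA the members differed in hnRNP H reads, and the values for Btg2 and Tob2 rested on 1 pool each. Summed over all pools Btg2 had 2.83 CLIP reads per 100 RNA-seq reads, Tob2 had 1.96, Btg1 5.18, Tob1 7.23 and Btg3 37.0, and the median over 12985 genes was 8.01. The ratio was above that of 28.5% of all genes for Btg2, 23.7% for Tob2, 40% for Btg1, 47.5% for Tob1 and 81.7% for Btg3. Btg2 is a short gene, and the median was 2.12 among 2174 genes spanning from 0.5 to 2 times its 3951 nt. Btg2 was above 55.7% of these short genes, Btg1 above 67.5% and Tob1 above 73.9%. Tob2 was above 48.7% and Btg3 above 94.5% of them. Tob2 and Btg3, at 10525 and 44556 nt, are themselves longer than this range, so their ranks in it compare unlike spans. Leaving out a pool, an alternative added after the data were seen, moved 3 of these ratios by over 1.5 times. Without methamphetamine replicate 3, Btg2 had 2 CLIP reads to 201 RNA-seq reads, a ratio of 0.995 that was above 36.4% of the short genes. Without methamphetamine replicate 1, the ratio was 0.671 for Tob2, above 34.9% of them, and 3.40 for Btg1, above 61.4%. The Btg2 and Tob2 ranks among short genes are therefore not settled at this depth. The uncertain Btg3 RNA counts also enter its ratio. The CLIP reads of Tob1 and most of those of Btg3 lay in introns, while those of Btg2 and Tob2 lay in exons. The ratios therefore set unlike parts of the transcripts against the RNA-seq reads, and do not measure binding per RNA alike in all members.

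**Figure D5:**
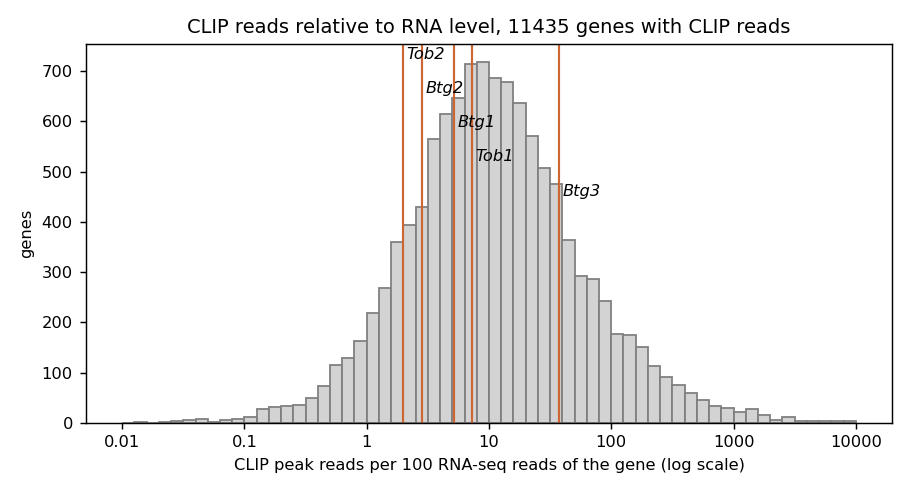
Number of genes (vertical axis) by CLIP reads per 100 RNA-seq reads on a log axis, for 11435 genes with CLIP reads, with the 5 members as lines. The median of 8.01 is over 12985 genes, including 1550 without CLIP reads that are not plotted. Tob2 and Btg2, at 1.96 and 2.83, lie left of that value, as do Btg1 and Tob1 at 5.18 and 7.23, and Btg3 lies to its right at 37.0.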

How the data were processed

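RNA-seq and hnRNP H CLIP-seq were measured in the same 6 pools, with depths of 3935160 to 5091839 recovered reads and 423057 to 1635338 CLIP reads per library. Per the submitters' processing notes the build was mm10 (GRCm38) and the tools included Trimmomatic, UMI-tools, STAR, bedtools, Subread, featureCounts, limma and edgeR; their versions and roles are not given in the sources used here. The deposited RNA-seq values are log2 CPM; undoing the log with an offset of 0.5 gave whole reads for 100% of values (tolerance 0.02). The deposited CLIP table gives counts per 100 nt position, and 172271 lines were reduced to 147438 distinct positions. The authors' lists give a signal, treated as a score of unstated scale, with p-values and q-values from a test not given in the sources used here.

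RNA-seq was tested with limma 3.58.1 (mean-variance trend) over all genes, and CLIP counts with edgeR 4.0.16 (TMM, filterByExpr, quasi-likelihood) in R 4.3.3, per position and summed per gene, with Benjamini-Hochberg adjustment at 0.05; DESeq2 1.42.0 was an alternative. One summed share was tested by exact permutation (scipy 1.17.1). Genes and exons came from GENCODE M21. Wilson 95% intervals and the limit of 3 counts cover counting error only, with each read taken as counted once. Levels per length used summed exons, and likeness to Btg2 used genes with at least 60 reads. The text names the members, Fos and Dusp1, the gene with the largest positive and the largest negative difference of each list among genes with at least 60 reads, the 5 genes most like Btg2, and for CLIP each listed position and the position with most reads of each member; other genes were named after their values were seen. Members and lists were chosen with earlier results of these data known. Mutant mice were not analysed here.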

Additional observations from a re-analysis of the deposited data

How the results depend on the processing

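The Btg2 RNA difference lay between 1.19 and 1.39 under all 13 alternatives, and between 1.19 and 1.39 when single pools were left out. The values that chose Btg2 enter all of these fits, so this range is a description without a test. Dropping the variance trend, keeping only genes with at least 60 reads or adding the replicate block cannot change the RNA difference of a member. Btg1, Btg3 and Tob1 kept the sign of their RNA difference in all alternatives, at -0.31 to -0.07, -0.27 to -0.05 and 0.09 to 0.39. The Tob2 RNA difference turned positive without methamphetamine replicate 3 (0.01) and without saline replicate 3 (0.02), within a range of -0.23 to 0.02, and the Btg3 CLIP difference turned negative without methamphetamine replicate 2 (-0.22), within a range of -0.22 to 0.69; the Tob1 CLIP difference stayed between 0.33 and 0.47. The share of CLIP reads in the family differed by 10.3 to 31.9 RPM with single pools left out (exact permutation p = 0.2, the smallest then possible) and by 37.4 without the 1% of positions with the most reads. No gene passed the adjusted threshold in any of the 13 RNA-seq alternatives (limma, edgeR or DESeq2), and the genes with an unadjusted p under 0.05 numbered 103 to 958, the most without methamphetamine replicate 2 (958) and without saline replicate 2 (928). CLIP sums per gene gave 0 adjusted calls in all 11 alternatives, and 182 to 993 genes had an unadjusted p under 0.05. Single CLIP positions gave 0 adjusted calls except without a count filter, where 414 of 140449 positions passed, none of them in a member, and 109 to 6792 positions had an unadjusted p under 0.05. At or above the median signal of its list, the Btg3 position left the saline list, which then held 0 member positions. With the longest transcript as length the mean over all libraries became 1.74 log2 RPKM for Btg3 and 3.73 for Tob2.

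Same-numbered pools had correlations of deviations of -0.346, -0.821 and -0.489 in RNA-seq and -0.248, -0.413 and -0.0378 in CLIP. Each saline pool and the methamphetamine pool of the same number lay in opposite library sets. Whether replicate numbers paired the pools can therefore not be judged from these values. With the replicate block the Btg2 difference stayed at 1.28, as it must in a balanced design. There 0 genes or positions passed the adjusted threshold, with 144 RNA-seq genes, 109 CLIP positions and 182 CLIP gene sums at an unadjusted p under 0.05. Depth limits the CLIP side: 0 of the 19 member positions and 2 of the 5 gene sums (Btg3 and Tob1) passed the count filter, and without it the sums of Btg1, Btg2 and Tob2 had unadjusted p of 0.273, 0.183 and 0.185 (edgeR). Btg2 RNA rests on 283 reads in all.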
